A study of Homo sapiens with 12 samples.

Results

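The transcriptional response to TNFα that persists in the absence of the NF-κB subunit p65 was examined in p65-deficient HCT116 cells. HCT116 is a diploid human colon cancer cell line. The libraries were chosen by their labels, and 6 of the 12 RNA-seq libraries of the series belong to these cells. They form 3 matched pairs, each with 1 library at 0 h and 1 library at 1 h of TNFα (20 ng/mL). The first pair received no inhibitor, the second had 5 µM CPT (camptothecin, an inhibitor of topoisomerase I) for 2 h, and the third 5 µM ICRF193, an inhibitor of topoisomerase II, for 2 h. In the inhibitor pairs the 0 h library had the inhibitor alone. TNFα was added after the 2 h, so that the 1 h libraries may have been in the inhibitor for longer than their 0 h partners, which the labels do not settle. All 6 libraries come from a single cell clone, clone 32, that the study's methods describe as edited with CRISPR-Cas9 and a guide against the third exon of p65, whereas the sample labels call the same libraries shRNA p65. The other 6 libraries are parental HCT116 cells (WT) under the same 6 conditions and serve here only for comparison. Each condition is 1 library, so the 3 pairs take the place of replicates, although they differ in inhibitor. Nothing in the labels says how the cultures of a pair were related. The p-values measure only the spread between these libraries, which the fit estimates in part from all genes together. A fit that leaves out a pair takes its spread largely from other genes. Its p-values therefore do not show how well the remaining pairs agree. With 1 clone, what is particular to the clone and what follows from loss of p65 cannot be told apart.

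TNFα acts on this epithelial line through TNF receptor 1, whose signalling complex feeds the IκB kinases and the MAP kinases JNK, p38 and ERK. The IκB kinases free p65-containing dimers, which drive chemokine genes and the feedback inhibitors NFKBIA and TNFAIP3. JNK instead phosphorylates JUN and ATF2, members of the AP-1 and ATF families of leucine zipper factors. Such factors are known to act on the promoters of *JUN* itself and of other immediate early genes, which are transcribed without new protein synthesis, and the DUSP phosphatases then switch the kinases off.

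In the p65-deficient cells the total counted reads were between 8101212 and 8755001 in 4 libraries and 18502365 and 20524958 in the 0 h libraries of the CPT and no-inhibitor pairs. Depth is therefore partly tied to TNFα time, and only the ICRF193 pair had similar depth on both sides, 8755001 reads at 0 h and 8676666 at 1 h. The WT libraries held 16300210 to 22051046 reads. *RELA* (11:65421067-65430443 of hg19, minus strand), which encodes p65, had 431, 529 and 489 normalised read counts at 0 h without inhibitor, with CPT and with ICRF193, and 453, 505 and 439 at 1 h. RELA transcript thus remained measurable in every library of the clone and did not pass the test for TNFα (adjusted p = 0.835, edgeR quasi-likelihood test with Benjamini-Hochberg adjustment). The reads in this table do not show whether the transcript carries the edit. How far each library of the clone stood from the others was not tested. The calls below that were lost without the no-inhibitor pair are named. Colon epithelial markers summed to 3902 to 4759 CPM (read counts scaled to a common library total) at 0 h and 3848 to 4502 at 1 h, with 6 of 10 markers reaching 20 reads and *CDX1* and *TFF3* at 0. Fibroblast markers summed to at most 13.9 CPM, leukocyte markers to at most 26.2 and endothelial markers to at most 5.57.

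*JUN*, which encodes a core subunit of AP-1, was the one gene that the test over the 3 pairs raised more than 2-fold (1:59246463-59249785 of hg19, minus strand). Its normalised read count, scaled with size factors over the 6 libraries, was 121 at 0 h and 795 at 1 h without inhibitor, 1098 and 1875 with CPT, and 135 and 794 with ICRF193. Every 1 h library was above its own 0 h library, but the groups overlapped, since the 0 h CPT library lay above the 1 h libraries of the other pairs. The rise was 6.57-fold without inhibitor, 1.71-fold with CPT and 5.90-fold with ICRF193. On the log2 scale these ratios were 2.72 (95% interval 2.49 to 2.95), 0.77 (0.67 to 0.87) and 2.56 (2.26 to 2.87), where the exact binomial interval covers counting error only. Over the 3 pairs the fitted log2 change was 1.66 ± 0.17 (SE, n = 3 pairs; adjusted p = 4.72e-07, edgeR quasi-likelihood test with Benjamini-Hochberg adjustment). This SE, here and for other genes, is derived from the test statistic, whose spread is partly shared across genes. It is not the spread of the 3 pair ratios, which differed more. In a fit with a term for sequencing depth it was 2.57 (adjusted p = 0.000871). Depth and TNFα time coincide in the other pairs, so that this fit takes the TNFα effect from the ICRF193 pair alone, 1 library against 1, and adds no support over the pairs. Without the no-inhibitor pair the change was 1.32 (adjusted p = 3.78e-44). The remaining pairs had log2 ratios of 0.77 and 2.56, and that p-value does not measure how far they differ. Neither DESeq2 (adjusted p = 0.796) nor the edgeR fit without the pair block called *JUN*.

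The change in *JUN* was compared with that in WT cells. The WT log2 ratios were 2.48, 0.64 and 2.86 in the same order of pairs, and the fitted WT change was 1.75 (adjusted p = 1.99e-05, edgeR). The difference in change, WT minus p65-deficient, was 0.09 ± 0.45 (SE; adjusted p = 0.964). The difference was smaller than its error, and the CPT pairs of both lines had smaller ratios than the other pairs.

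Promoters of the genes around which the p65-deficient response is described are shown so that the AP-1/ATF-like letters in 4 of them can be set beside the κB letters of *NFKBIA*, whose TNFα response in WT cells exceeded that of the clone. Only promoters with a match were printed, so that a match in each was fixed by the choice. ATF3 has 2 listed promoters, and the one not shown held none of the motifs searched. Each run is the 250 bases before the annotated start in RefSeq GRCh38.p14, written 5′ to 3′ on the gene's strand. JUN is chr1:58784048-58784297 (minus strand), ATF3 is chr1:212565157-212565406 (plus), DUSP1 is chr5:172771196-172771445 (minus), JUND is chr19:18281623-18281872 (minus) and NFKBIA is chr14:35404750-35404999 (minus). Capitals mark a match to TGACATCA in JUN and ATF3, to TGACGTCA in DUSP1 and JUND, and to the NF-κB consensus, read on the other strand, in NFKBIA.
JUN: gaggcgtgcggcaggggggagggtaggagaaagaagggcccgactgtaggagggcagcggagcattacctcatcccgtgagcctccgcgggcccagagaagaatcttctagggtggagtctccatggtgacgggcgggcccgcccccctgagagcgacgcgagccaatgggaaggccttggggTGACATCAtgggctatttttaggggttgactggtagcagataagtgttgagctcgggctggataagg
ATF3: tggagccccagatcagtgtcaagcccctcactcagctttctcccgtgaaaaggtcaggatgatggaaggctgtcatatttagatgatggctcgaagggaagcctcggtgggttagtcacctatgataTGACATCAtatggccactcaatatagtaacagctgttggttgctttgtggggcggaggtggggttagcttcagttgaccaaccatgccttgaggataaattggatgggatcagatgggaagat
DUSP1: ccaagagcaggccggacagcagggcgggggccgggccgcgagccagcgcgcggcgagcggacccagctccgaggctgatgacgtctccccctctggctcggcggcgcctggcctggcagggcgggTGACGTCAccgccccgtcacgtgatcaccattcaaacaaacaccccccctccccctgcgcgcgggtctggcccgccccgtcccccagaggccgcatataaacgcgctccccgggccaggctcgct
JUND: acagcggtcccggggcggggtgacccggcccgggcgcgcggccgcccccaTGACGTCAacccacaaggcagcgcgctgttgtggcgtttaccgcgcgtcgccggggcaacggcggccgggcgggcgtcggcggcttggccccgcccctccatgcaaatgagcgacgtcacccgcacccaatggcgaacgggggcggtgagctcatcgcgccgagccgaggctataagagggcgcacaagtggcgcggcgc
NFKBIA: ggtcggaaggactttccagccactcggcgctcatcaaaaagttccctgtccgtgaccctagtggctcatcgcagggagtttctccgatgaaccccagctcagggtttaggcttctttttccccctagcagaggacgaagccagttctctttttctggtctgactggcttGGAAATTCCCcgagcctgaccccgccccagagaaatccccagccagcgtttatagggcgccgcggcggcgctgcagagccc
Counting the annotated start as 1, the match lies at -67 to -60 in JUN, -123 to -116 in ATF3, -125 to -118 in DUSP1, -200 to -193 in JUND and -81 to -72 in NFKBIA. In windows of 300 bases, which add 50 bases after the start, TGACATCA was found on either strand in 2.61% of the 35116 RefSeq promoters, TGACGTCA in 1.85%, TGACTCA in 4.95%, the NF-κB consensus in 11.3% and the CArG box in 1.29%. A match describes letters and does not show binding.

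**Figure D1:**
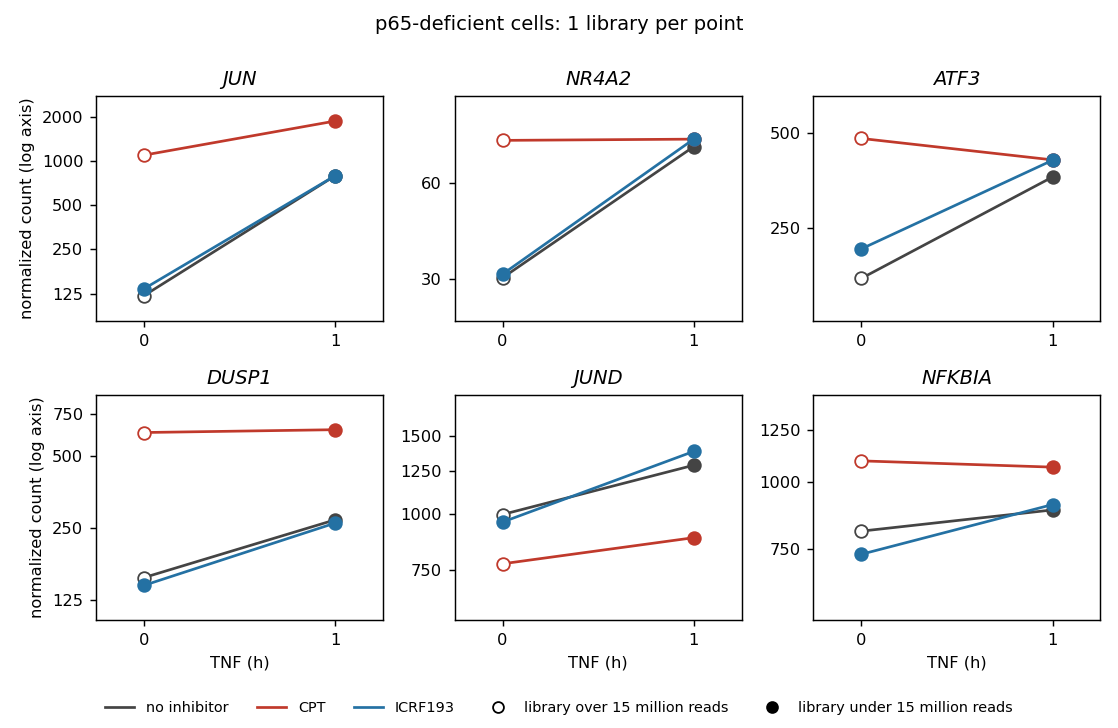
Normalised read counts (y axis, log scale) of *JUN*, *NR4A2*, *ATF3*, *DUSP1*, *JUND* and *NFKBIA* in the 6 libraries of p65-deficient cells at 0 h and 1 h of TNFα (x axis), 1 point a library, with a line joining each pair (no inhibitor, CPT or ICRF193). Open circles are the 2 libraries with more than 15000000 reads. *JUN* went from 121 to 795 without inhibitor and from 135 to 794 with ICRF193, whereas *NFKBIA* stayed between 734 and 1094 in all 6 libraries.

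Among the other AP-1 subunit genes, *JUND*, which encodes a JUN relative with high basal expression, was also raised. Its normalised read counts were 999 and 1288 at 0 h and 1 h without inhibitor, 775 and 887 with CPT, and 961 and 1383 with ICRF193. All 1 h libraries exceeded their 0 h partners, with the CPT pair lowest on both sides, so that the groups overlapped. The fitted log2 change was 0.37 ± 0.06 (SE, n = 3 pairs; adjusted p = 0.000967, edgeR quasi-likelihood test with Benjamini-Hochberg adjustment). It was 0.53 in the fit with the depth term, again the ICRF193 pair alone (adjusted p = 0.0123), and the difference from WT was -0.13 (adjusted p = 0.616). *JUN* and *JUND* were thus 2 of the 12 AP-1 genes tested that rose, and none fell (4 and 0 at an unadjusted p under 0.05). The background is 36 genes raised of 12858 tested, or 0.28%, and 28 lowered, or 0.218%. The median log2 change over the 12 was 0.08, against -0.00 over all genes tested.

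*ATF3*, which encodes a stress-induced ATF family member that can pair with JUN, had 173 and 363 normalised read counts at 0 h and 1 h without inhibitor, 481 and 411 with CPT, and 214 and 410 with ICRF193. The 1 h library was higher in the no-inhibitor and ICRF193 pairs and lower in the CPT pair, whose 0 h library was the highest of all 6. The log2 ratios were 1.07 (0.83 to 1.31), -0.23 (-0.42 to -0.03) and 0.94 (0.67 to 1.21). Over the 3 pairs *ATF3* did not pass the test (0.50 ± 0.13, adjusted p = 0.0811, edgeR), and without the CPT pair it did (1.02, adjusted p = 3.67e-17). It was 0.26 without the no-inhibitor pair (adjusted p = 0.849) and 0.32 without the ICRF193 pair (adjusted p = 0.198). In WT cells the 3 ratios were 1.08, 0.36 and 0.98, and the difference between the lines was 0.34 ± 0.23 (SE; adjusted p = 0.621).

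*FOS*, whose product pairs with JUN, had 73.4 and 73.9 normalised read counts without inhibitor, 1475 and 1527 with CPT, and 72.3 and 74.8 with ICRF193. CPT libraries were far above the rest at both times, and 0 h and 1 h were close within every pair. *JUNB* encodes a further JUN family member, and its log2 ratios were 0.03, -0.05 and 0.17 in the p65-deficient pairs but 1.62, 0.43 and 1.59 in the WT pairs. That difference was 1.15 ± 0.20 (SE; adjusted p = 0.0149, edgeR). *FOSL2* likewise passed in WT cells (0.39, adjusted p = 0.00243) and had -0.07 in the clone (adjusted p = 0.769), but the difference of 0.46 did not pass (adjusted p = 0.110). Of the AP-1 genes, 5 of 13 tested rose in WT cells.

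The ICRF193 pair was read on its own, since its depths were alike. A minimum of 20 reads in either library left 12029 genes, of which 41 were more than 2-fold higher and 16 more than 2-fold lower at 1 h. For 32 of the higher genes (0.266%) and 14 of the lower genes (0.116%) the counting interval also lay beyond 0. With at least 50 reads 7 genes were more than 2-fold higher and 0 lower. In all, 440 genes (3.66%) had an interval above 0 and 624 (5.19%) one below 0. The no-inhibitor pair shares no library with it. There 31 of 12883 genes (0.241%) were more than 2-fold higher with an interval above 0, and 40 (0.31%) were more than 2-fold lower. *JUN* and *NR4A2* were in both higher sets, 6.25% of the ICRF193 set and 6.45% of the no-inhibitor set, and no gene was in both lower sets.

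**Figure D2:**
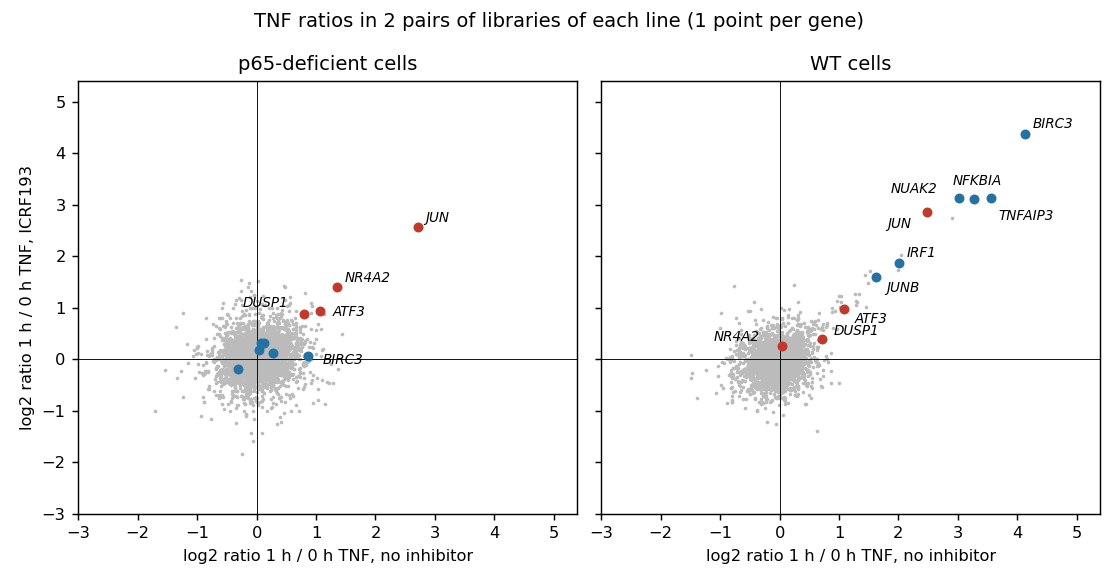
Log2 ratio of 1 h to 0 h TNFα in the no-inhibitor pair (x axis) and the ICRF193 pair (y axis), 1 point a gene, for p65-deficient cells and for WT cells. In the p65-deficient panel *JUN* lies at 2.72 and 2.56 and *NR4A2* at 1.36 and 1.40. 1 gene is outside the axes.

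*NR4A2* encodes an orphan nuclear receptor that is an immediate early gene in many cells (2:157180944-157189287 of hg19, minus strand). It had 30.4 and 78.0 normalised read counts at 0 h and 1 h without inhibitor, 81.5 and 82.3 with CPT, and 31.2 and 82.3 with ICRF193. The 0 h libraries without inhibitor and with ICRF193 were low, and the other 4 libraries lay close together. The log2 ratios were 1.36 (0.80 to 1.92), 0.01 (-0.45 to 0.46) and 1.40 (0.72 to 2.13). It did not pass over the 3 pairs (0.76 ± 0.20, adjusted p = 0.0701, edgeR) and passed without the CPT pair (1.38, adjusted p = 3.53e-07). It was 0.50 without the no-inhibitor pair (adjusted p = 0.849) and 0.56 without the ICRF193 pair (adjusted p = 0.126). The WT ratios were 0.04, -0.12 and 0.25, and the difference of -0.71 ± 0.25 between the lines did not pass (adjusted p = 0.419). Other genes that more than doubled in the ICRF193 pair did not in the no-inhibitor pair. *CDKN1C*, which encodes a cyclin-dependent kinase inhibitor, had a log2 ratio of 1.40 with ICRF193 (0.67 to 2.18) and -0.14 without inhibitor (-0.71 to 0.40).

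Of 50 other immediate early genes listed, 45 were tested, 3 rose and 1 fell, with a median log2 change of 0.02. The shares over all genes tested were 0.28% raised and 0.218% lowered. At an unadjusted p under 0.05 (edgeR) 11 of the list were higher and 7 lower, and 24 of the 45 had a fitted change above 0. *RHOB*, which encodes a small GTPase induced by stress, had 1416 and 1905 normalised read counts without inhibitor, 2854 and 2732 with CPT, and 1295 and 1828 with ICRF193. It was higher at 1 h in the no-inhibitor and ICRF193 pairs and not in the CPT pair, whose libraries were above the other 4. Its fitted change was 0.27 ± 0.06 (SE; adjusted p = 0.0437, edgeR), and 0.50 with the depth term (adjusted p = 0.0860). *EREG*, which encodes the EGF receptor ligand epiregulin, had 6805 and 8346, 3715 and 4153, and 7183 and 8336 in the same order of pairs. Every pair was higher at 1 h, with a fitted change of 0.23 ± 0.04 (adjusted p = 0.00326, edgeR). *ERRFI1*, which encodes an inhibitor of EGF receptor family kinases, changed by 0.16 ± 0.04 (adjusted p = 0.0437, edgeR). The genes that rose thus include a ligand and an inhibitor of the same receptor.

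*ID1*, which encodes an inhibitor of helix-loop-helix factors, was the member that fell. Its normalised read counts were 3866 and 3151 without inhibitor, 2143 and 1837 with CPT, and 3231 and 2658 with ICRF193. Each 1 h library was below its 0 h partner, and the CPT pair was below the other libraries. The log2 ratios of -0.29, -0.22 and -0.28 were close to each other, and the fitted change was -0.26 ± 0.04 (SE; adjusted p = 0.000967, edgeR). *ID1* also fell in WT cells (-0.43, adjusted p = 0.0141), where the no-inhibitor and ICRF193 pairs had -0.74 and -0.62 and the CPT pair 0.07.

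Reading the no-inhibitor and ICRF193 pairs side by side gave more members than the test over 3 pairs. Counting intervals lay above 0 in both pairs for 98 of the 12858 genes tested (0.762%) and below 0 in both for 166 (1.29%). The share was 3 of 12 for AP-1 genes (*ATF3*, *JUN* and *JUND*), 11 of 45 for the other immediate early genes and 3 of 11 for the MAP kinase phosphatases. It was 0 of 41 for NF-κB target genes, which is near the share of 0.762% over all genes and does not set that list apart. In the ICRF193 pair alone, 7 of these 41 had an interval above 0 and 1 below 0, with a median log2 ratio of 0.08, where 446 of all 12858 genes tested were above 0 and 633 below. Beside *EREG*, *ERRFI1*, *NR4A2* and *RHOB*, the 11 were *IER3*, *KLF6*, *MAFF*, *MCL1*, *MYC*, *PHLDA1* and *PLK2*. *MAFF*, which encodes a small MAF leucine zipper protein, had log2 ratios of 0.54 without inhibitor, -0.32 with CPT and 0.40 with ICRF193. *PLK2*, a stress-responsive kinase gene, had 0.30, -0.20 and 0.19. For both, the CPT pair went the other way, and neither passed over the 3 pairs (adjusted p = 0.442 and 0.412, edgeR).

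The MAP kinase phosphatases had no member past the test among 11 tested, where 0.28% of all genes rose and 0.218% fell. Their median was -0.05, with 2 higher and 2 lower at an unadjusted p under 0.05 (edgeR). DESeq2 raised no gene in these cells, members of this and the other lists included. *DUSP1*, the phosphatase that acts on JNK and p38, had 155 and 270 normalised read counts at 0 h and 1 h without inhibitor, 628 and 646 with CPT, and 143 and 262 with ICRF193. The 1 h libraries without inhibitor and with ICRF193 were above their partners and well below both CPT libraries. The log2 ratios were 0.81 (0.54 to 1.07), 0.04 (-0.12 to 0.20) and 0.87 (0.53 to 1.21), with a fitted change of 0.42 ± 0.11 (SE; adjusted p = 0.0559, edgeR). Without the CPT pair *DUSP1* passed (0.84, adjusted p = 8.32e-09), and it did not without the no-inhibitor pair (0.30, adjusted p = 0.606) or the ICRF193 pair (0.29, adjusted p = 0.101). The difference from WT cells was -0.00 ± 0.16 (SE; adjusted p = 0.998). *DUSP8*, which encodes a further phosphatase of JNK and p38, had 0.66, 0.28 and 0.69 in the 3 pairs (adjusted p = 0.155) and rose in WT cells (0.92, adjusted p = 0.000188).

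*GDF15*, which encodes a stress-induced TGF-β family cytokine, passed in the fit with the depth term, which rests on the ICRF193 pair alone (0.52, adjusted p = 0.0236, edgeR), and not over the 3 pairs (0.19, adjusted p = 0.252). Its normalised read counts were 1937 and 2380 without inhibitor, 2628 and 2198 with CPT, and 2452 and 3506 with ICRF193. It was named after its values were seen. With the depth term 3 genes rose (0.0233%), *JUN*, *JUND* and *GDF15*, and 0 fell, with 275 and 194 genes at an unadjusted p under 0.05 (edgeR). *RHOB*, *EREG*, *ERRFI1* and *ID1* did not pass in that fit, although their values there were 0.50, 0.22, 0.14 and -0.27. Without the no-inhibitor pair they did not pass either, with 0.20, 0.19, 0.13 and -0.25. *RHOB* also did not pass without the ICRF193 pair (0.17).

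NF-κB target genes were set beside their response in WT cells. Of 65 listed, 41 were tested in the p65-deficient cells, none rose or fell by edgeR, and the median log2 change was -0.03. Over all genes tested in these cells 0.28% rose and 0.218% fell, so that 0 of 41 is near that share. At an unadjusted p under 0.05 there were 2 higher and 4 lower. Of the 47 tested in WT cells 27 rose, with a median of 0.70, where over all genes 84 of 13707 rose (0.613%) and 4 fell (0.0292%). For the 23 members that rose in WT cells and were tested in both lines, the WT change ran from 0.18 to 3.71 with a median of 0.97. In the p65-deficient cells the same 23 ran from -0.46 to 0.40 with a median of -0.00. They were chosen for passing in WT cells, which fixes part of that contrast.

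*NFKBIA*, which encodes IκBα (14:35870716-35873960 of hg19, minus strand), had 810 and 887 normalised read counts without inhibitor, 1094 and 1065 with CPT, and 734 and 908 with ICRF193. The 0 h and 1 h libraries overlapped, and only the ICRF193 pair had an interval beyond 0 (log2 ratio 0.31, 0.15 to 0.47). The WT ratios were 3.28, 0.90 and 3.10, and the difference between the lines was 2.35 ± 0.38 (SE; adjusted p = 0.00703, edgeR). *TNFAIP3*, which encodes the deubiquitinase A20, had 50.2 and 60.5, 41.7 and 49.4, and 59.8 and 64.9 in the p65-deficient pairs. Its 1 h libraries were slightly above their partners, each within counting error, and the difference from WT was 2.90 ± 0.31 (SE; adjusted p = 0.000107). The kinase gene *NUAK2* had 53.6 and 43.0, 63.7 and 34.3, and 52.4 and 46.1, lower at 1 h in each pair, with a difference of 3.32 ± 0.33 (SE; adjusted p = 5.04e-05).

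The chemokine genes were near the limit of detection in the clone. *CXCL8*, which encodes interleukin 8, had at most 9.19 normalised read counts in any of the 6 libraries and none in the 0 h ICRF193 library. *CXCL1* had 1.25 to 14.7 and *CXCL2* 2.49 to 17.2, with the highest value of all 3 genes in the 0 h CPT library. All 3 were below the filter on low counts of the test within the clone, and DESeq2, run without it, gave them an adjusted p of 1.00 each. Their differences from WT, from the fit over all 12 libraries, were 4.96 ± 0.99, 4.65 ± 0.85 and 4.24 ± 0.63 (SE; adjusted p = 0.0374, 0.0203 and 0.00403, edgeR). *BIRC3*, which encodes the ubiquitin ligase cIAP2, had an interval above 0 without inhibitor (log2 ratio 0.86, 0.24 to 1.47) but not with ICRF193 (0.05, -0.76 to 0.87).

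Across all genes the TNFα effect was larger in WT cells for 28 of 13730 genes (0.204%) and smaller for 2 (0.0146%). The 28 include 14 NF-κB targets, *JUNB* of the AP-1 list, and *BTG2*, *IER3* and *KLF10* of the other immediate early genes. Without the no-inhibitor pairs of both lines the larger change passed for 3 genes, *NUAK2*, *TNFAIP3* and *CXCL2*, and without the ICRF193 pairs for 2, *NUAK2* and *TNFAIP3*. Without the CPT pairs it passed for 70. The differences of *NFKBIA*, *JUNB*, *IER3*, *NFKB2*, *CXCL1* and *CXCL8* thus lost their call when either of these pairs was left out. None of the 11 MAP kinase phosphatases and 24 JNK or p38 pathway genes tested was among the 28. With a share of 0.204% over all genes, 0 in lists of this size does not set them apart. *IER3*, which encodes an early survival factor, had log2 ratios of 0.16, -0.06 and 0.23 in the clone and 1.03, 0.39 and 0.99 in WT cells. Its difference was 0.69 ± 0.11 (SE; adjusted p = 0.00703, edgeR). Of the 84 genes raised in WT cells 79 were tested in the clone, where their median log2 change was 0.04 against 0.52 in WT cells, a contrast that is partly fixed by choosing the genes on WT values. The 4 raised in both lines, *JUN*, *JUND*, *RHOB* and *RND3*, are 4.76% of the WT genes and 11.1% of the 36 raised in the clone. *RND3* changed by 0.38 in the clone and did not pass without the no-inhibitor pair (0.24, adjusted p = 0.944, edgeR). Its counting interval in the ICRF193 pair spanned 0 (-0.04 to 0.46).

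**Figure D3:**
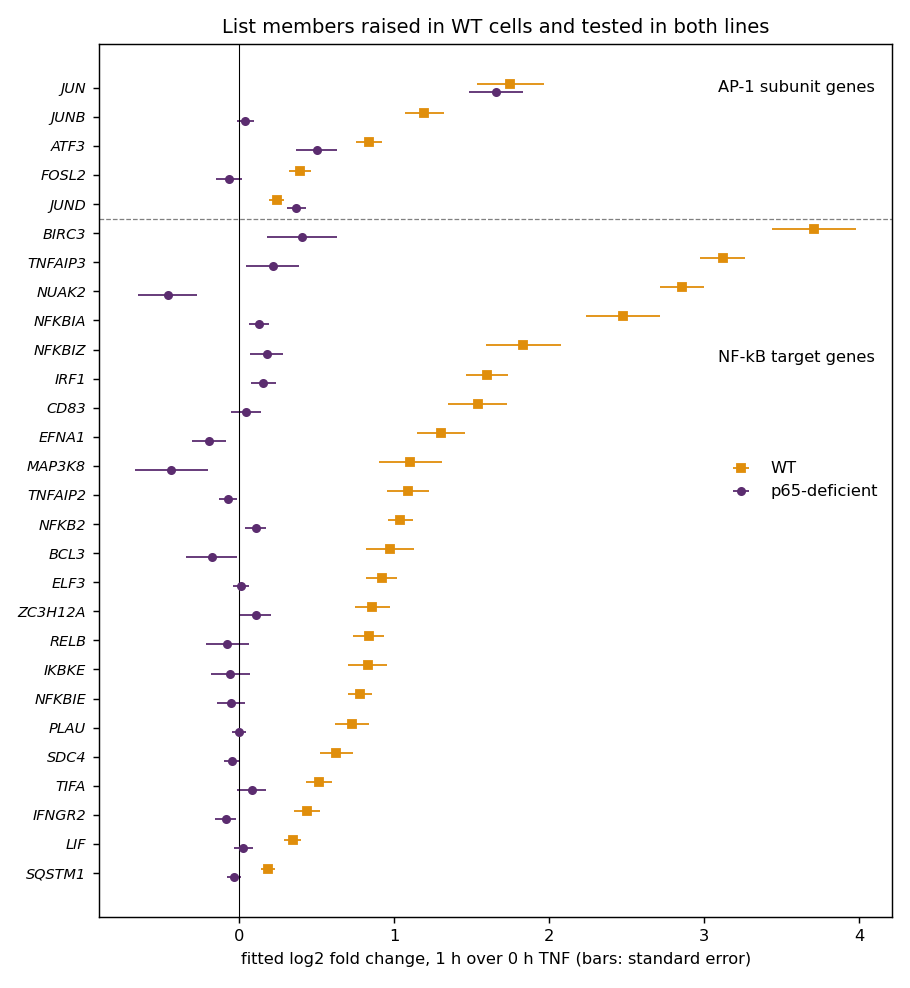
Fitted log2 change with TNFα (x axis) in WT cells (squares) and p65-deficient cells (circles), with bars of 1 SE, for the 5 AP-1 genes and 23 NF-κB target genes (y axis, 1 row a gene) that rose in WT cells and were tested in both lines. The points of *JUN*, at 1.75 and 1.66, overlap within their bars, and the p65-deficient points of the NF-κB targets lie between -0.46 and 0.40.

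Genes of the signalling machinery gave no call in the clone. Over all genes tested 0.28% rose and 0.218% fell, so that 0 in lists of this size is near the share over all genes. Of 24 JNK and p38 pathway genes none passed in either line by edgeR, and the median in the clone was -0.01 (0 higher and 1 lower at an unadjusted p under 0.05). Of 24 TNF receptor complex genes none passed in the clone (median -0.04, 2 higher and 1 lower at an unadjusted p under 0.05) and 2 rose in WT cells. The 5 NF-κB subunit genes gave no call in the clone (median -0.04, 0 at an unadjusted p under 0.05), and 2 of them rose in WT cells (median 0.37). *NFKB2*, which encodes p100 and p52, had a log2 ratio of 0.35 in the ICRF193 pair (0.18 to 0.52) and 0.03 without inhibitor, and its difference from WT was 0.93 ± 0.14 (SE; adjusted p = 0.00403, edgeR). Of 14 integrated stress response genes none passed in the clone (median -0.01, 3 higher and 2 lower at an unadjusted p under 0.05) and 3 rose in WT cells.

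Apart from *JUN*, the 36 genes raised in the clone changed by less than 2-fold. Their median log2 ratios were 0.40 without inhibitor, 0.31 with CPT and 0.22 with ICRF193. In the ICRF193 pair 23 of them had an interval above 0, as did 446 of all 12858 genes tested. The raised and lowered genes were chosen by the test on these same pairs, which fixes part of their values in them. Between the 0 h libraries with ICRF193 and without inhibitor, where no TNFα was given but depth differed, the same genes had a median ratio of 0.14. That comparison shares a library with each of these pairs. The 28 lowered genes had medians of -0.41, -0.48 and -0.14 in the pairs and -0.49 between those 0 h libraries. Depth and TNFα cannot be told apart in the no-inhibitor and CPT pairs, and for the lowered genes the median between 0 h libraries was as large as in those pairs. With scaling by total counts the split was 28 raised and 11 lowered. Without the no-inhibitor pair it was 8 and 6, and without the ICRF193 pair 297 and 284. DESeq2 called 0 raised and 1 lowered, *SNORA73B*, with 143 and 202 genes at an unadjusted p under 0.05.

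Long nuclear RNAs were among the raised genes. *MALAT1*, an abundant RNA of nuclear speckles, had 18404 and 26561 normalised read counts without inhibitor, 27043 and 32498 with CPT, and 23820 and 28442 with ICRF193. Each pair was higher at 1 h, but the 0 h libraries with inhibitor also lay above the one without. The log2 ratio between the 0 h libraries with ICRF193 and without inhibitor was 0.37, as large as the fitted TNFα change of 0.36 ± 0.06 (SE; adjusted p = 0.00103, edgeR). *NEAT1*, the scaffold RNA of paraspeckles, had a fitted change of 0.37 (adjusted p = 0.00509) and 0.29 between those 0 h libraries. Without the no-inhibitor pair *NEAT1* did not pass (0.22, adjusted p = 0.608), while *MALAT1* and *MIR17HG* did. *MIR17HG*, the host transcript of the miR-17-92 microRNAs, had 226 and 356, 104 and 189, and 226 and 308. It was higher at 1 h in every pair and equal in the 0 h libraries with ICRF193 and without inhibitor, with a fitted change of 0.65 ± 0.09 (adjusted p = 0.000317). In WT cells *MIR17HG* had ratios of 0.07, -0.25 and 0.11. *MIR17HG* and *MALAT1* are the 2 genes whose change was larger in the clone (differences -0.65 and -0.48, adjusted p = 0.0414 and 0.00403). Without the ICRF193 pairs neither passed (adjusted p = 0.0968 and 0.0530), and without the no-inhibitor pairs *MALAT1* passed (adjusted p = 0.0408) and *MIR17HG* did not (0.642).

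The remaining raised genes that had 1 sign in all pairs, at least 20 reads on average and an ICRF193 interval above 0 were mostly protein-coding genes of varied function, with small changes. *KCNQ1OT1*, a long noncoding antisense RNA, had log2 ratios of 0.39, 0.16 and 0.31, and did not pass without the no-inhibitor pair. *USP14*, which encodes a proteasome-bound deubiquitinase, had 272 and 358, 270 and 404, and 252 and 339 normalised read counts in the 3 pairs. Its 1 h libraries were all above its 0 h libraries, and its change was 0.48 ± 0.08 (SE; adjusted p = 0.00124, edgeR). *SRP9*, a signal recognition particle subunit gene, had 0.41, 0.62 and 0.22 (adjusted p = 0.00125), and *TAF1D*, which encodes a subunit of the RNA polymerase I factor SL1, had 0.56, 0.39 and 0.24 (adjusted p = 0.000920). *TAF1D* hosts small nucleolar RNAs in its introns, and its value is uncertain where annotated features overlap. *PTBP2*, which encodes a splicing regulator, had 0.39, 0.31 and 0.48 (adjusted p = 0.0421). None of these 4 genes passed in WT cells. Without the no-inhibitor pair *USP14* and *SRP9* still passed (adjusted p = 0.00864 and 0.0130), and *TAF1D* and *PTBP2* did not. With the depth term none of the 4 passed.

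Small nucleolar RNAs made up most of the lowered genes. By symbol, a list added after the values were seen, 19 of the 28 lowered and 1 of the 36 raised genes were snoRNAs or scaRNAs, of 184 tested. *SNORA73B*, which guides ribosomal RNA processing, had 14209 and 11934 normalised read counts without inhibitor, 16447 and 13306 with CPT, and 11154 and 10029 with ICRF193. Each pair was lower at 1 h, yet the 0 h ICRF193 library was below the 1 h library without inhibitor. Over the 184 the median log2 ratio was -0.15 in the no-inhibitor pair, -0.31 in the CPT pair and 0.08 in the ICRF193 pair. It was -0.22 between the 0 h libraries with ICRF193 and without inhibitor. The median thus had the other sign in the pair of equal depth. *MIR6087* fell by 0.71 on the log2 scale (adjusted p = 0.00104, edgeR), with ratios of -1.54, -0.33 and -0.22, and lay at -1.16 between those 0 h libraries. Without the no-inhibitor pair it was -0.27 and did not pass (adjusted p = 0.387), nor did *SNORA73B* (-0.22, adjusted p = 0.0818). *HCRTR1*, the gene lowered more than 2-fold in the fit, had 107 normalised read counts in the 0 h no-inhibitor library and at most 17.8 in the other 5. Its change was -2.34 over the 3 pairs and -0.48 without the no-inhibitor pair, where it did not pass (adjusted p = 0.992).

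**Figure D4:**
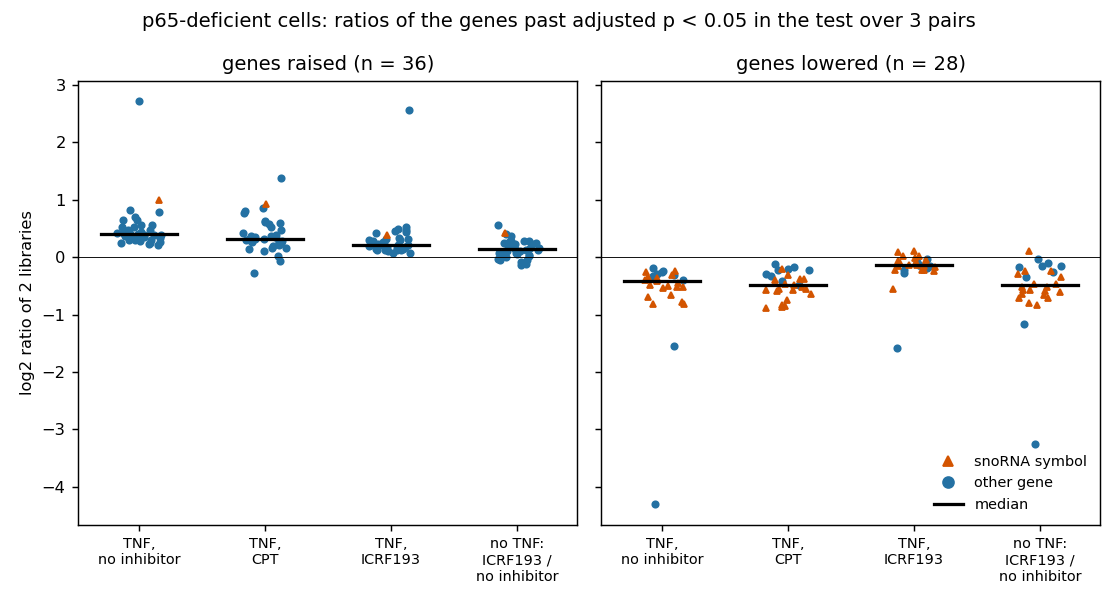
Log2 ratios (y axis) of the 36 raised and 28 lowered genes of p65-deficient cells in the 3 pairs and between the 0 h libraries with ICRF193 and without inhibitor (x axis), 1 point a gene, triangles for snoRNA or scaRNA symbols and bars for medians. The lowered genes have a median of -0.14 in the ICRF193 pair and -0.49 between the 0 h libraries.

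The motif search was extended to the genes named by the 3-pair test or by the ICRF193 pair, 49 in all, of which 29 matched the RefSeq table with 34 promoters. TGACTCA was found in 3 promoters (*KLHL21*, *LPXN* and *YOD1*), TGACGTCA in 2 (*CHPF* and *JUND*), TGACATCA in 1 (*JUN*) and the CArG box in 1 (*HNRNPD*). These are 8.82%, 5.88%, 2.94% and 2.94% of the 34, against 4.95%, 1.85%, 2.61% and 1.29% of all RefSeq promoters. The set mixes raised and lowered genes, and *KLHL21*, *LPXN* and *CHPF* were lower at 1 h. Among promoters of the genes raised in the 3-pair test, each of these motifs was found in 1 of 19. The NF-κB consensus was found in 0 of the 34, against 11.3% of all RefSeq promoters. Of the 24 promoters of the 19 genes named in any case, most of them early response or NF-κB target genes, 8 held it, those of *BIRC3*, *CXCL1*, *CXCL2*, *IRF1*, *NFKBIA*, *NFKBIZ* and *TNFAIP3*. The 19 were picked for what is known of them, so this share is a description.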

How the data were processed

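RNA-seq was done on total RNA of HCT116 cells. The deposited values are raw counts of reads per gene: per the submitters' processing notes the authors trimmed reads with Trimmomatic, aligned them with STAR to hg19 and counted them with featureCounts 1.5.0, without strand, so that a gene and an antisense or intronic partner cannot be told apart. The files hold 26364 genes. Groups came from the sample titles.

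Genes were tested with edgeR 4.0.16 (R 4.3.3; TMM scaling, low counts filtered by TNFα time, quasi-likelihood test, inhibitor pair as a block, Benjamini-Hochberg adjustment over all genes tested, threshold 0.05) in the 6 p65-deficient libraries and in the 6 WT libraries, and the difference between lines as an interaction over all 12 with 6 pair blocks. The pair block follows the labels, as the inhibitor is shared. Deviations of the 2 libraries of a pair correlated across genes at 0.668 (no inhibitor), 0.876 (CPT) and 0.630 (ICRF193). A single pair was compared by size-factor-scaled counts with a 95% exact Clopper-Pearson interval, which covers counting error only, as reads without molecular identifiers are not independent molecules. Scripts were tested on simulated data.

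Genes were named that passed the test with 1 sign in 3 pairs, a mean of at least 20 reads and an ICRF193 interval beyond 0 (30 genes), that were among the 10 largest changes each way in the ICRF193 pair, that were list members past the threshold, or that belonged to a set of 19 early response and NF-κB genes. Genes that were named otherwise were chosen after their values were seen. The libraries, gene lists and tests were chosen with earlier results of these data known. Alternatives were DESeq2 1.42.0, other scaling, filters, no block, a depth term (above or below 15000000 reads), thinning, all 12 libraries in 1 fit, and leaving out each pair. 1 item is not reported here. Promoters came from RefSeq GRCh38.p14 and were matched by symbol, and both strands were searched. Positions of genes are those of the deposited hg19 annotation.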

Additional observations from a re-analysis of the deposited data

Results flagged for a closer look

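The TNFα effect differed between the lines for 30 genes by a test of the difference itself (edgeR quasi-likelihood interaction over 12 libraries, Benjamini-Hochberg adjusted p under 0.05). Values are log2 differences, WT minus p65-deficient. Among NF-κB feedback, subunit and survival genes they were 2.35 for *NFKBIA*, 0.83 for *NFKBIE*, 0.93 for *NFKB2*, 2.90 for *TNFAIP3*, 1.16 for *TNFAIP2* and 3.30 for *BIRC3*. The chemokine genes had 4.65 for *CXCL1*, 4.24 for *CXCL2*, 3.71 for *CXCL3* and 4.96 for *CXCL8*. Transcription factor and early response genes had 1.15 for *JUNB*, 0.98 for *KLF10*, 0.69 for *IER3*, 0.68 for *BTG2*, 1.44 for *IRF1*, 0.91 for *ELF3*, 0.67 for *OVOL1* and 0.50 for *DDIT4*. Signalling and other genes had 3.32 for *NUAK2*, 1.498 for *EFNA1*, 0.63 for *PDGFB*, 0.62 for *ITPKC*, 0.36 for *PIM3*, 0.35 for *EHD1*, 0.52 for *UPP1*, 0.74 for *BBC3*, 1.27 for *N4BP3* and 1.76 for *C10orf55*. The change was larger in the p65-deficient cells for *MIR17HG* (-0.65) and *MALAT1* (-0.48). All 30 rest on 3 pairs a line, and the clone's libraries differ in depth as described for its pairs.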

How the results depend on the processing

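In the p65-deficient cells the count of raised genes was 36, and 21 with DESeq2 size factors, 64 without a filter on low counts, 22 with a mean of at least 20, 0 with DESeq2, 0 without the pair block, 3 with the depth term and pair block, 5 with 12 libraries in 1 fit and 17 after thinning to the lowest total. The count of lowered genes was 28, and 11 with total counts, 79 without the filter, 1 with DESeq2, 0 without the pair block, 0 with the depth term and 3 with 12 libraries. Without the block 79 and 50 genes had an unadjusted p under 0.05. Leaving out a pair gave 8 to 297 raised and 6 to 284 lowered. For the difference between the lines, genes with a larger change in WT numbered 28, and 106 without the filter, 0 without the pair block, 5 with DESeq2 and 2 to 70 without a pair. Those with a smaller change numbered 2, and 27, 0, 1 and 0 to 55. In the ICRF193 pair the 41 higher and 16 lower genes became 166 and 83 with at least 10 reads, 7 and 0 with at least 50, and 204 and 123 at more than 1.5-fold. The *JUN* difference between the lines was near 0 and changed sign, with -0.017 by DESeq2 and -0.064 to 0.18 over the pairs left out. The cause was not tested. With 1 library a condition and 4 of 6 libraries under 15000000 reads, the precision of each value is limited. *JUN* and *JUND* passed over 3 pairs and without each pair, but not with DESeq2 or without the block, nor *JUN* with 12 libraries in 1 fit.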
